A study of Mus musculus with 6 samples.

Results

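The 10 genes described here code for keratins of simple epithelium and for proteins that hold epithelial cells together. They are the keratins Krt7, Krt8, Krt18, Krt19, Krt20 and Krt23, and the adhesion genes Cdh1, Epcam, Perp and Cldn7. Their probes were taken by name, as every non-control probe that carried the current or a former symbol of one of them, whatever its values. The genes themselves were chosen with earlier results of these data known. All 10 were found, with 12 probes and 21 spots per array, of 27573 genes or named transcripts, 41174 probes and 43379 non-control spots in all. Krt7 and Krt8 had 2 probes each, and the single Cdh1 probe was printed at 10 spots. No spot of these genes was saturated or marked as an outlier, over 126 readings.

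Keratins are the intermediate filament proteins of epithelial cells, and they assemble as pairs of a type II and a type I chain. Krt8 (type II) and Krt18 (type I) form the filaments of hepatocytes, while bile duct cells add Krt7 and Krt19 and Krt20 is best known from gut epithelium. Cdh1, or E-cadherin, is the transmembrane protein of epithelial adherens junctions, and Cldn7 is a claudin of tight junctions. Epcam is a surface glycoprotein of simple epithelia and of bile duct cells. Perp is a membrane protein of desmosomes that was first described as a target of p53.

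The tumors grew from Hepa1-6, a mouse hepatoma line kept in culture, after its cells were inoculated under the skin of female C57Bl/6 mice. The labels give 3 tumors removed at day 15 (303, 313 and 318) and 3 removed at day 10 (302, 307 and 312), with no treatment and no genetic change named for the host mice. Each tumor's RNA was labelled with Cy5 and hybridised to its own 2-colour Agilent array, together with Cy3-labelled RNA of a reference that the labels call blood of an untreated C57Bl/6 mouse. No array had the dyes swapped, the labels do not say which mouse a tumor came from, and p-values measure only the spread between these tumor samples.

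On each array the scanner software called 52.4% to 58.5% of spots well above background in the tumor dye, Cy5, and 47.5% to 52.8% in Cy3. The number of arrays limits the precision of every value below. All day 15 arrays lay on 1 slide and all day 10 arrays on another, so slide and day cannot be told apart. An area of the array of day 10 tumor 312 had lost signal, and it covered 15.35% of the spots there and 4 of the 10 Cdh1 spots. Tumor 313 stood apart from the other tumors in most of the genes described here, so that its part in the comparisons is given beside them.

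In blood cell genes the reference did not have the profile that its label gives. Ptprc, the common antigen of white blood cells, was not well above background in Cy3 on any array, and the beta-globin gene Hbb-bt was higher in the tumors by 5.80 on the log2 scale (SE 0.07). Of 9 blood cell genes tested, 8 were higher in the tumors and 1 was lower. On all 6 arrays, 10 of 17 probes of blood cell genes were well above background in Cy3 (58.8%). So were 14 of 24 probes of hepatocyte and hepatoma genes (58.3%), against 42.5% of all probes. The share was 66.7% for bile duct, 55.6% for macrophage, 45.5% for fibroblast and 25.0% for skin epithelium genes. These shares do not single out a cell type for the reference. It is therefore called the reference labelled as blood, and each ratio to it says only how a tumor stood against that RNA.

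Krt8 and Krt18 gave bright signals in both dyes. On the log2 scale after scaling between dyes and arrays, the Cy5 signal of Krt8 was 14.04 in tumor 313 and between 16.20 and 16.69 in the other tumors, and the Cy3 signal of the reference labelled as blood was between 16.66 and 17.02. The log2 ratio of tumor to that reference for Krt8 was -0.64, -2.98 and -0.32 in day 15 tumors 303, 313 and 318, against -0.14, 0.03 and -0.23 in day 10 tumors 302, 307 and 312. Every day 15 tumor was thus below every day 10 tumor, tumor 313 by far the most, and the days did not overlap in 8.94% of all genes. The second Krt8 probe gave the same order of the days, with -0.41, -1.61 and -0.28 at day 15, against 0.03, 0.28 and 0.05 at day 10. The probes of Krt8 differed by -1.37 in tumor 313 and by -0.28 to -0.04 in the other tumors, so the size of the low value in tumor 313 depends on the probe.

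For Krt18, the partner chain of Krt8, the log2 ratio was -0.28, -2.14 and 0.27 in day 15 tumors 303, 313 and 318, against 0.05, 0.08 and 0.32 in day 10 tumors 302, 307 and 312. Tumor 313 was again the lowest, while tumor 318 lay within the day 10 range, so the days overlapped. Its Cy5 signal was 15.86 in tumor 313 and 17.56 to 17.92 in the other tumors, and its Cy3 signal lay between 17.59 and 17.99 on all arrays. In bulk RNA, fewer epithelial cells and less keratin RNA per cell cannot be told apart.

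**Figure D1:**
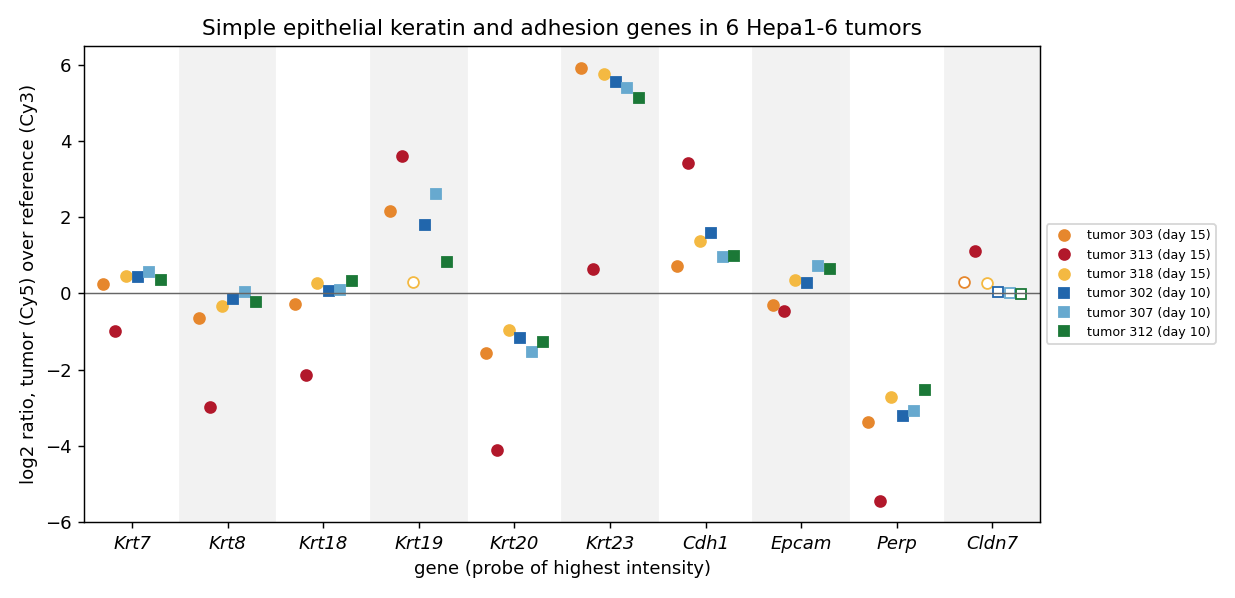
Log2 ratio of tumor (Cy5) over the reference labelled as blood (Cy3) for each of the 10 genes, with 1 point per tumor (circles day 15, squares day 10) and open points where neither dye was well above background. Tumor 313 (dark red) lies below all other tumors for Krt7, Krt8, Krt18, Krt20, Krt23, Epcam and Perp, and above them for Krt19, Cdh1 and Cldn7.

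Krt7, the type II keratin of ducts, was close to the level of the reference labelled as blood in the tumors other than 313. Its log2 ratio was 0.24, -0.99 and 0.45 in day 15 tumors 303, 313 and 318, against 0.43, 0.57 and 0.36 in day 10 tumors 302, 307 and 312. The second Krt7 probe was also lowest in tumor 313, at -1.29, with the others between -0.29 and 0.32.

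Krt19, a small type I keratin of ducts and progenitor cells, went the other way in tumor 313. The gene's log2 ratio was 2.16, 3.61 and 0.29 in day 15 tumors 303, 313 and 318, against 1.81, 2.63 and 0.82 in day 10 tumors 302, 307 and 312. It was well above background in Cy5 in every tumor except 318, and in Cy3 on only 2 arrays. The range within day 15 covered all day 10 values.

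Krt20 was lower than the reference labelled as blood in all 6 tumors. The log2 ratio of Krt20 was -1.57, -4.10 and -0.95 in day 15 tumors 303, 313 and 318, against -1.17, -1.55 and -1.27 in day 10 tumors 302, 307 and 312. The Cy5 signal was 11.77 in tumor 313 and 14.15 to 14.90 in the other tumors, and the Cy3 signal was 15.65 to 16.17.

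Krt23, a type I keratin, had the highest ratios of the 10 genes in every tumor except 313. The log2 ratio of Krt23 was 5.94, 0.64 and 5.76 in day 15 tumors 303, 313 and 318, against 5.55, 5.40 and 5.13 in day 10 tumors 302, 307 and 312. The tumors other than 313 lay within a log2 unit of each other, day 15 tumors 303 and 318 above all day 10 tumors, and with tumor 313 the days overlapped. The Cy5 signal of Krt23 was 7.26 in tumor 313 and 14.02 to 15.11 in the other tumors. The Cy3 signal moved in the same direction, with 6.62 on the array of tumor 313, where it was not well above background, and 8.09 to 9.36 on the other arrays. Whether Cy5 signal contributed to the Cy3 reading of this probe was not tested.

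The promoter windows of Krt8, Krt18, Krt20 and Krt23, which were low together in tumor 313, are shown, and that of Krt7, also low there, is not. They are RefSeq sequences of the mouse assembly GRCm38.p6, 300 bases long with 250 before and 50 after the annotated start. Such windows were at hand for 7 of the 10 genes (8 windows, since Cldn7 had 2), and not for Krt19, Cdh1 and Perp. Those shown lie at chr15:102004293-102004592 on the minus strand for Krt8, chr15:102027966-102028265 on the plus strand for Krt18, chr11:99438104-99438403 on the minus strand for Krt20 and chr11:99493071-99493370 on the minus strand for Krt23. Each is printed 5′ to 3′ on the gene's strand, and capitals mark TATAAA or CACCTG, the E-box letters that Snail and Zeb factors are known to bind, on either strand.
Krt8: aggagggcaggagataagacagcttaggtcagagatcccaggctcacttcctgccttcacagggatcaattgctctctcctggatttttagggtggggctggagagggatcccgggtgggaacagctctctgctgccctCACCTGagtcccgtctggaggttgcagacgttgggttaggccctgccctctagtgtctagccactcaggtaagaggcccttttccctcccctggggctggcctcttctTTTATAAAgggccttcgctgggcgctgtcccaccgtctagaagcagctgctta
Krt18: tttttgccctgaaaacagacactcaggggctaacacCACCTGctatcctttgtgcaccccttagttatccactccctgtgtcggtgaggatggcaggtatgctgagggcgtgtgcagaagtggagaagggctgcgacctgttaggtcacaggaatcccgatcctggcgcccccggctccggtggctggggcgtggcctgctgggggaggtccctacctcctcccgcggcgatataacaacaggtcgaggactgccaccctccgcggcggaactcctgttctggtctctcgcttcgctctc
Krt20: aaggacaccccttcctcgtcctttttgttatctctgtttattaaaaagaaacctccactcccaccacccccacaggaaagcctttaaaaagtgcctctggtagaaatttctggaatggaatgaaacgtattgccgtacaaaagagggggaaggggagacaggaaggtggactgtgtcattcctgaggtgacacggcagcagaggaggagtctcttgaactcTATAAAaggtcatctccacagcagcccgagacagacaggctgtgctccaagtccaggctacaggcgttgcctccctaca
Krt23: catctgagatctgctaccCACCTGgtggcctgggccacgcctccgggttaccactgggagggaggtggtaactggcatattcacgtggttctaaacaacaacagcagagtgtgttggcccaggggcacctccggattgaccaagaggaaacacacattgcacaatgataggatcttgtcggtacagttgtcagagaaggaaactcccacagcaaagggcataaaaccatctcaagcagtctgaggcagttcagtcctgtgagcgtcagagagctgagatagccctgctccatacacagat
CACCTG stood once in the windows of Krt7, Krt8, Krt18 and Krt23 and not in that of Krt20. It also stood in the window of Epcam, a gene in which tumor 313 lay close to the nearest other tumor. A window of Cldn7, which was well above background in tumor 313 alone, held it as well. In all, 20.2% of 32851 mouse promoter windows of this length hold CACCTG on either strand. Of the 4 windows printed, those of Krt20 and Krt8 held TATAAA, which in Krt8 overlapped its own reverse complement TTTATA, and 13.6% of all windows hold it. The letters TGANTCA (an AP-1 site) and TGTTTAC (a forkhead site, reverse complement GTAAACA) were found on either strand in none of the 8 windows, against 7.81% and 3.65% of all windows. GGGCGG or its reverse complement CCGCCC, held by 35.7% of all windows, was not found in any of the 4 windows printed. The window of Krt7, which was also low in tumor 313, held 4 such matches. The window of Epcam and 1 window of Cldn7 held 1 each. A match is only a run of letters, and the part of any of these letters in the values of tumor 313 was not tested.

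Cdh1 was the adhesion gene with the highest ratios. Its log2 ratio was 0.72, 3.42 and 1.38 in day 15 tumors 303, 313 and 318, against 1.59, 0.96 and 0.99 in day 10 tumors 302, 307 and 312. Tumor 313, the lowest in most keratins, was the highest here, and the other tumors overlapped between the days. The Cy5 signal was 10.15 in tumor 313 and 7.58 to 8.43 in the other tumors. In Cy3 Cdh1 was not well above background on any array, so its ratio to the reference labelled as blood is a bound, at least 2.72-fold higher as a mean over the 6 tumors and at least 2.08-fold without tumor 313. The 10 spots agreed closely on most arrays, with an SD of 0.07 to 0.21 on the log2 scale, but on the array of tumor 312 the SD was 0.64 and 6 of 10 spots were well above background in Cy5. Outside the lost area the mean of that array was 1.45, against 0.99 over all 10 spots.

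Perp, the desmosome protein, had the lowest ratios of the 10 genes. The log2 ratio of Perp was -3.37, -5.44 and -2.73 in day 15 tumors 303, 313 and 318, against -3.21, -3.09 and -2.53 in day 10 tumors 302, 307 and 312. All 6 tumors lay below the reference labelled as blood, and tumor 313 lay lowest. The Cy5 signal was 9.79 in tumor 313 and 11.86 to 13.09 in the other tumors, and the Cy3 signal was 15.18 to 15.62.

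In Epcam tumor 313 did not stand far apart, but the tumors other than 313 still ranged from -0.30 to 0.71. The log2 ratio of Epcam was -0.30, -0.46 and 0.35 in day 15 tumors 303, 313 and 318, against 0.29, 0.71 and 0.65 in day 10 tumors 302, 307 and 312. Tumor 313 was lowest by only 0.17. Cldn7 was well above background only in the Cy5 channel of tumor 313, so it entered no test. The log2 Cy5 signal of Cldn7 was 7.69 in tumor 313, and in the other tumors, where it was not well above background, it read 6.48 to 6.87.

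**Figure D2:**
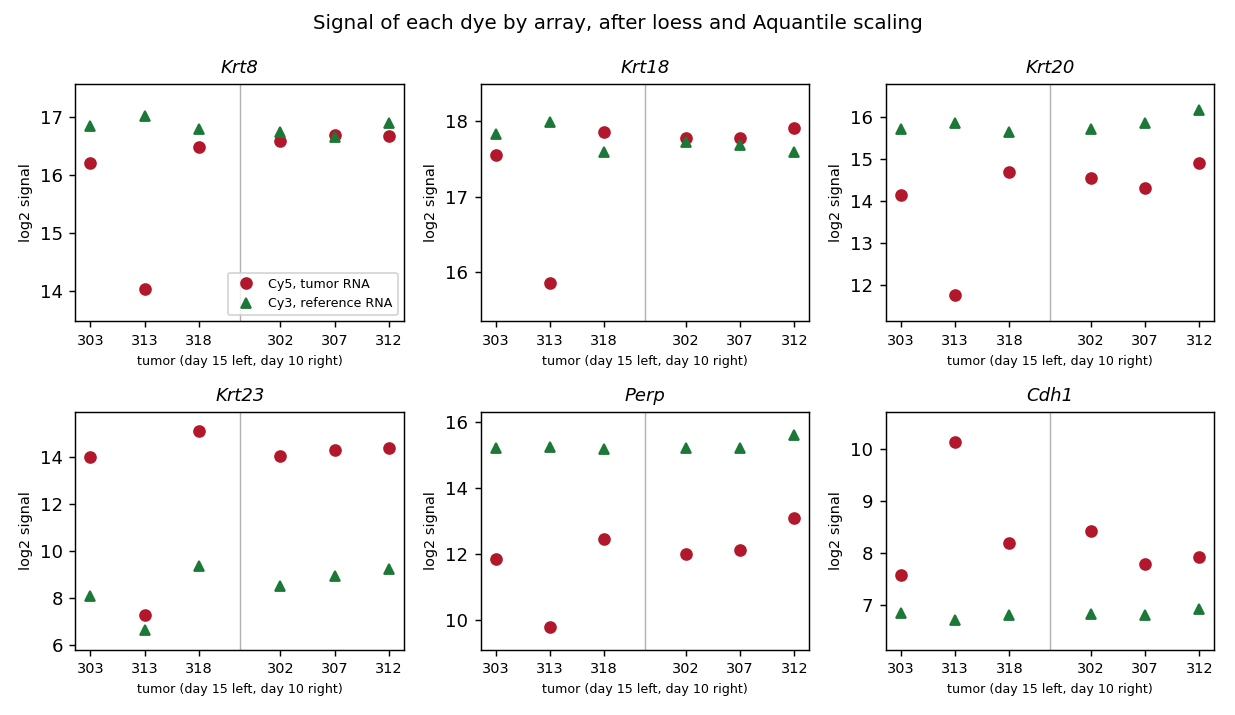
Log2 signal of Cy5 (tumor RNA, circles) and Cy3 (reference labelled as blood, triangles) for 6 of the genes on each array, with day 15 tumors left of day 10 tumors and a separate vertical scale per gene. In tumor 313 the Cy5 signal is the lowest of the 6 for Krt8, Krt18, Krt20, Krt23 and Perp and the highest for Cdh1, while the Cy3 signal varies less than the Cy5 signal.

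Tumor 313 was the lowest of the 6 tumors in 7 of the 9 genes that passed the filter on dim probes, and the highest in the other two, Krt19 and Cdh1. Over 16148 genes measured on all arrays it was lowest in 30.4% and highest in 33.7%. Krt7, Krt8, Krt18, Krt20, Krt23 and Perp were at least 1 log2 unit under the lowest of the other tumors, 6 of 9 genes, against 3.18% of all genes. Cdh1 was at least 1 log2 unit over the highest of the others, 1 of 9 genes, against 1.07%. None of the other 5 tumors was that far outside the rest in any of the 9 genes, where tumor 312 was at least 1 log2 unit under the rest in 2.01% of all genes and each of the others in 0.161% or fewer. The place of tumor 313 was the same under 5 scalings for every one of the 10 genes, with a gap to the nearest tumor of -2.39 to -2.17 for Krt8, -1.92 to -1.63 for Krt18, -6.30 to -2.77 for Krt23, and 1.28 to 1.84 for Cdh1. These counts describe a single tumor and carry no test.

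Against the reference labelled as blood, 3 of the 9 genes tested were higher in the tumors and 2 were lower. Over all 16319 genes tested, 25.5% were called higher and 9.77% lower, by limma with a Benjamini-Hochberg adjusted p under 0.05 and an absolute log2 ratio of at least 1. The 3 of 9 called higher stand close to the share over all genes. Krt23 was higher by 4.74 on the log2 scale, 26.6-fold (SE 0.68, adjusted p = 0.000716 in limma), and positive in 6 of 6 tumors. Krt19 was higher by a measured 1.88 (SE 0.43, limma adjusted p = 0.00599), although its Cy3 signal was well above background on only 2 of 6 arrays. Cdh1 was higher by a measured 1.51 (SE 0.33, limma adjusted p = 0.00505), and both were positive in 6 of 6 tumors. Perp was lower, at -3.40 on the log2 scale, so that the reference labelled as blood held 10.5-fold more (SE 0.34, limma adjusted p = 0.00013). Krt20 was lower as well, at -1.77, with 3.41-fold more in that reference (SE 0.38, limma adjusted p = 0.00469). Without tumor 313 these 5 calls held in limma, at 5.60 for Krt23 (SE 0.09), 1.49 for Krt19, 1.12 for Cdh1, -3.00 for Perp and -1.30 for Krt20.

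Krt8 (-0.71, SE 0.33), Krt18 (-0.28, SE 0.29), Krt7 (0.18, SE 0.19) and Epcam (0.21, SE 0.13) did not pass, with limma adjusted p of 0.0874, 0.403, 0.405 and 0.169 in that order. Without tumor 313 they stood at -0.30, 0.0758, 0.40 and 0.29 in the same order, all under the size threshold. The limma adjusted p was then 0.0174 for Krt8 and 0.00326 for Krt7, both under 0.05, and 0.521 for Krt18 and 0.0766 for Epcam. Where each array was centred on its median in place of the loess, the median over all genes moved to -0.34, against 0.22 with loess. Krt8 at -1.69 (limma adjusted p = 0.0027) and Krt18 at -1.26 (limma adjusted p = 0.00591) were then called lower as well, which makes 4 lower. That scaling turned the split over all genes to 3239 higher and 4595 lower, against 4159 higher and 1594 lower with loess, and the scanner's processed signals gave 4448 higher and 3232 lower. The ratios of Krt7 and Epcam turned negative under both. Relative to the median of all genes with loess, the ratio was -0.93 for Krt8, -0.50 for Krt18, 4.51 for Krt23, 1.66 for Krt19, 1.29 for Cdh1, -1.99 for Krt20 and -3.62 for Perp.

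Between the days, none of the 9 genes tested passed in limma at an adjusted p under 0.05. Over 15802 genes, 0.057% passed. Among the probes that represent the 9 genes, that of Epcam alone had an unadjusted p under 0.05, against 4.01% of all genes, with a difference of -0.69 on the log2 scale between day 15 and day 10 (SE 0.25, limma unadjusted p = 0.0319). The second probe of Krt8 differed by -0.89 (SE 0.36, limma unadjusted p = 0.046). The estimated difference was -1.20 for Krt8 (SE 0.67), -0.86 for Krt18 (SE 0.59), -0.88 for Krt20 (SE 0.77), -1.25 for Krt23 (SE 1.37) and -0.90 for Perp (SE 0.67). It was -0.56 for Krt7 (SE 0.38), 0.66 for Cdh1 (SE 0.67) and 0.27 for Krt19 (SE 0.87). Krt8 was the only gene of the 9 whose days did not overlap, as was so for 8.94% of all genes.

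The sizes of most of these differences rested on tumor 313. Without it, the difference between day 15 and day 10 was -0.37 for Krt8, -0.15 for Krt18, -0.11 for Krt7, -0.11 for Perp, -0.52 for Epcam, 0.07 for Krt20, 0.49 for Krt23, -0.13 for Cdh1 and -0.53 for Krt19, none past the threshold in limma. Krt23 then had the single unadjusted p under 0.05. In the Cy5 channel alone, with all 6 tumors, 0 genes passed in limma and 0 had an unadjusted p under 0.05, and Krt8 differed by -1.15 between day 15 and day 10. Markers of skeletal muscle also differed between the days. All 7 had estimates below 0 and 4 of them were called lower at day 15, and their median log2 ratio lay at -0.24 to -0.13 in day 15 tumors, against 3.55 to 4.19 in day 10 tumors. Their part in the differences of the epithelial genes was not tested.

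**Figure D3:**
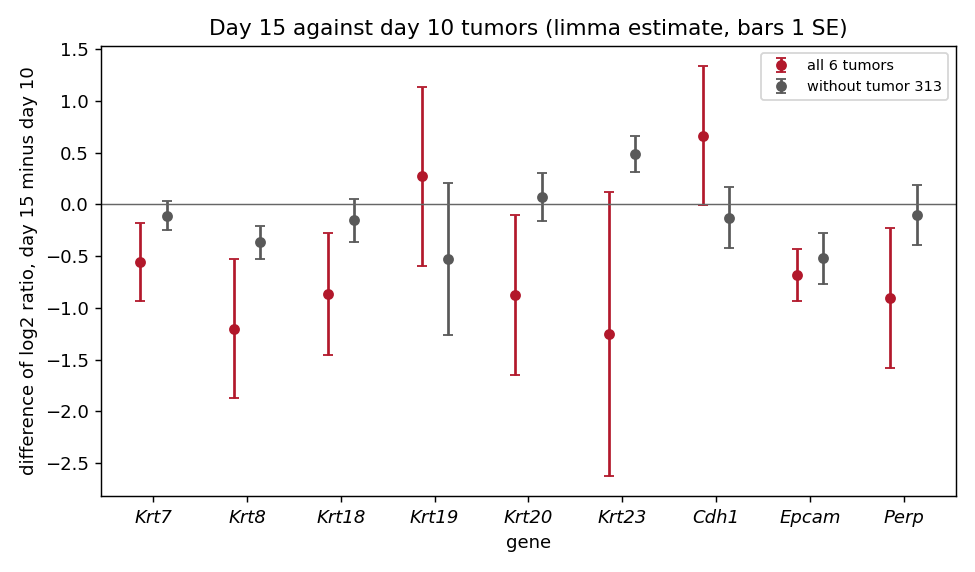
Difference of the log2 ratio between day 15 and day 10 tumors as limma estimated it, with bars of 1 SE, for the 9 genes tested, in all 6 tumors (red) and without tumor 313 (grey). The estimates of Krt8, Krt18, Krt20, Krt23 and Perp lie between -1.25 and -0.86 in all 6 tumors and between -0.37 and 0.49 without tumor 313.

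Other genes of epithelial cells, 83 in 6 lists, were read beside these 10. Against the reference labelled as blood, 10 of 60 tested were higher in the tumors and 11 were lower, against 25.5% and 9.77% of all genes. The median log2 ratio of the 60 was -0.41, against 0.22 over all genes tested. Without tumor 313 the number lower was 6. Between the days 0 of 57 passed in limma, against 0.057% of all genes. An unadjusted p under 0.05 was found for 2 (Anxa8 and Krt71), where 4.01% of all genes had one. The median difference was -0.24, against 0.02 over all genes. Tumor 313 was lowest in 32 and highest in 7 of 58 genes measured on all arrays, against 30.4% and 33.7% of all genes. The same shares over all genes stand beside the counts of each list below.

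Tight junction and polarity genes were lowest in tumor 313 in 12 of 14 cases. The median log2 ratio of the list was -1.86 in tumor 313 and -0.61 to -0.11 in the other tumors. Cldn4, a claudin, read -2.01 in tumor 313, against 0.68 to 1.51 in the other tumors, and the claudin Cldn3 read -2.42 against -1.57 to -0.37. In the comparison with the reference labelled as blood, 1 of 14 was higher and 4 were lower. Tjp3, a scaffold protein of tight junctions, was higher by 1.62 (SE 0.19) and well above background in Cy3 on 2 arrays. Pard6b, a polarity adaptor, was lower at -1.90 (SE 0.20), as were Cldn12 at -1.70 (SE 0.07) and Cldn3 at -1.41 (SE 0.18). The list median was -0.59. Without tumor 313, 3 of 14 were higher and 3 were lower.

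Desmosome genes had a list median of -1.76 in tumor 313 and -0.52 to -0.06 in the other tumors. Dsp, or desmoplakin, which ties the keratin filaments to the desmosome, read -3.51 in tumor 313, against -0.36 to 0.30 in the others. Dsg2, the desmosomal cadherin of simple epithelia, read -3.59 against -0.78 to 0.32, and Ppl, or periplakin, -2.05 against -0.74 to 0.16. Of 8 tested against the reference labelled as blood, 1 was higher, the plakophilin Pkp3 at 1.75 (SE 0.16), and 1 was lower, Pkp1 at -1.86 (SE 0.14), which was well above background in Cy5 on 2 arrays. The list median was -0.53.

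Adherens junction genes lay closer together, with a list median of -0.53 in tumor 313 and -0.28 to 0.07 in the other tumors. Cdh2, or N-cadherin, which hepatocytes carry beside E-cadherin, read -1.29 in tumor 313, against 0.73 to 1.25 in the others, the reverse of the place of Cdh1. Of 9 tested against the reference labelled as blood, 0 were higher and 1 was lower in limma, Nectin3 at -1.01 (SE 0.07), an adhesion molecule of the immunoglobulin family, and without tumor 313 none was called lower. The list median was -0.17.

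Epithelial transcription and splicing factors included Esrp2, a splicing regulator of epithelial cells, at -2.89 in tumor 313 and -1.04 to -0.23 in the others, and Elf3, an epithelial ETS factor, at -1.38 and -0.39 to 0.25. Elf3, Cldn3, Cldn4 and Dsg2 were each well above background in Cy5 on 5 of 6 arrays. Of 7 tested against the reference labelled as blood, 1 was lower, Grhl2, a grainyhead factor, at -2.47 (SE 0.08, well above background in Cy5 on 2 arrays), and the list median was -0.69. Trp53, which codes for p53, stood at -0.95 (SE 0.11, limma adjusted p = 0.000264), under the size threshold. Other epithelial surface genes ran the other way against that reference, with 6 higher and 2 lower of 13 and a list median of 0.42. Without tumor 313, 5 of these were higher and 0 were lower in limma. Ceacam1, an adhesion molecule of hepatocytes among other cells, was higher by 3.49 (SE 0.32), and the galectin Lgals4 by 2.25 (SE 0.15).

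Other keratins were lowest in tumor 313 in 1 gene, Krt13 (-2.27, against -1.39 to -0.48 in the others), and highest in 2. Of 9 tested against the reference labelled as blood 2 were higher and 2 were lower, with a list median of -0.43. Without tumor 313, 1 was higher and 1 was lower. Krt5, the type II keratin of basal cells, was lower at -1.75 (SE 0.12) and Krt13, a type I keratin of stratified epithelium, at -1.09 (SE 0.19). Krt71, a keratin of the inner root sheath of hair, differed between day 15 and day 10 by -3.52 (SE 0.71, limma adjusted p = 0.617) and was well above background in Cy5 on 3 arrays.

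Mesenchymal genes and the factors of epithelial to mesenchymal transition were higher than the reference labelled as blood in 8 of 14 cases and lower in 0, with a list median of 2.02. Vim, the vimentin of mesenchymal filaments, was higher by 4.20 (SE 0.16), and Col1a1, a chain of type I collagen, by 7.65 (SE 0.19). The list median was 2.31 in tumor 313 and 1.81 to 2.06 in the other tumors. Hepatocyte and hepatoma genes were lowest in tumor 313 in 15 of 18 cases and highest in 2, with a list median of -1.12 there and 1.82 to 2.69 in the other tumors. Among them, Afp and Alb, chosen after their values were seen, read -4.75 and -2.48 in tumor 313, against 2.22 to 3.25 and 2.26 to 3.06 in the others. H19, of the same list, went the other way, at 3.20 in tumor 313 and 0.36 to 1.57 in the others. The part of the shift of the hepatocyte and hepatoma genes in the low keratin values of tumor 313 was not tested.

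**Figure D4:**
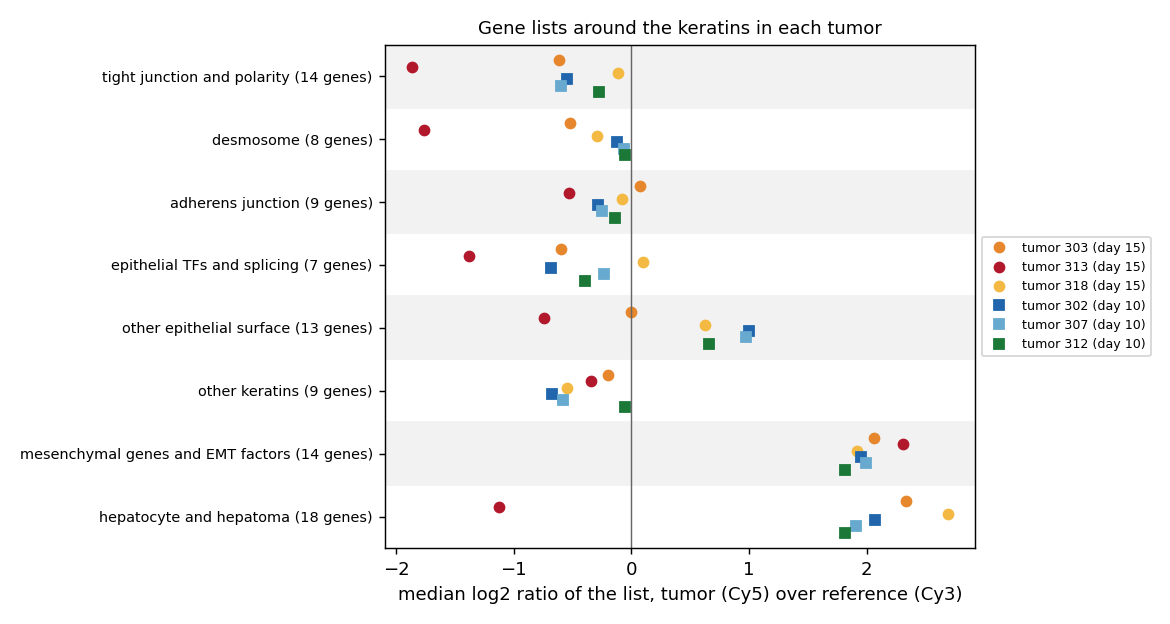
Median log2 ratio of tumor (Cy5) over the reference labelled as blood (Cy3) for 8 gene lists in each tumor, with circles for day 15 and squares for day 10 and the number of genes in brackets. Tumor 313 lies lowest in the tight junction, desmosome, adherens junction, epithelial factor, epithelial surface and hepatocyte lists and highest in the mesenchymal list.

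The genes most like Krt8 over the 6 tumors were ranked by the root mean square difference of their log2 ratios after each gene was centred on its own mean, among 1699 genes well above background in Cy5 on all arrays and with an SD of at least 0.5. The nearest were Cx3cl1 (0.144), Iigp1 (0.202), Esrp2 (0.203), Cpe (0.206) and Ldhd (0.218). Krt18 was the gene of rank 14 (0.264), Krt20 that of rank 19 (0.282) and Perp that of rank 29 (0.321). Krt7 stood at rank 158, Krt23 at rank 570 (0.922) and Cdh1 at rank 1630. Cx3cl1 read -0.45 in tumor 313 and 2.04 to 2.53 in the other tumors. The nearest to Cdh1 were Fbxo32 (0.190), Mitf (0.229), Ctsd (0.248), H19 (0.253) and Syngr1 (0.268), and Mitf read 4.24 in tumor 313 and 2.08 to 2.88 in the other tumors. Tumor 313 lay farthest from the other tumors in both Krt8 and Cdh1, so the ranks mostly reflect the size of the shift in that tumor. All of these values come from the same 6 arrays, and the ranks are a description with no test.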

How the data were processed

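The deposited scanner files were made with Agilent Feature Extraction 9.1.3.1, per the submitters' processing notes and the file headers. They hold the mean pixel intensity and the median local background intensity of each spot and dye, not normalized, per the file headers. They also hold processed intensities, which the software had background-subtracted and dye-normalized, and their log10 ratio of Cy5 over Cy3, per the file headers. In the authors' deposited value table the log10 ratios differ by 0 from those of the scanner files, which settles its scale, centring and direction.

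Mean intensities were corrected with normexp (offset 50), and loess normalized the log2 ratios of each array, both in limma 3.58.1 (R 4.3.3). Control and outlier spots had weight 0 in the loess and were then left out. Spots of a probe were averaged, and a gene was represented by its probe of highest mean log intensity. Signals of single dyes were taken after loess and Aquantile scaling. For a probe not well above background in Cy3 on any array, the ratio is a bound against the higher, per array, of its own signal and the lowest signal of a probe well above background. Such bounds are open to dye bias, as no dyes were swapped. Probes were named through RefSeq genes of GRCm38.p6, 23374 by accession, 6733 by current and 2919 by former symbol, and 8148 kept the name in the array files. Day 15 was compared with day 10 over probes that were well above background in 3 or more arrays in Cy5. Tumors were compared with the reference labelled as blood, by testing the mean of the day averages against 0, over probes so in either dye, which leaves out the spread between reference samples. Both used the 2-sided test of lmFit and eBayes, p-values were adjusted over all probes by Benjamini-Hochberg with a threshold of 0.05, and the fit was tested on simulated data.

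Alternatives covered the background correction, scaling, processed signals, value table, filter on dim probes, mean of probes, array position as a block, lost area, single dyes and each tumor left out. The genes and the 16 lists were chosen with earlier results of these data known. Named list genes are those of the 4 smallest p per list and comparison, and others are said to be chosen after their values were seen.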

Additional observations from a re-analysis of the deposited data

Results flagged for a closer look

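In groups of the 6 tumors, 8 of 11 probes, of 7 of 9 genes, had a single value whose gap to the nearest other, over the whole range, passed Dixon's 95% critical value, and in each that value was tumor 313. Chance gives such a value in about 1 in 20 independent groups, but the probes share the tumors and so are not independent. The share of all genes that pass this rule was not computed, so the count shows nothing particular to these genes. Tumor 313 was also known from earlier results to stand apart. Over 16148 genes, tumor 313 was the lowest in 30.4% and the highest in 33.7%, so the nominal share is not a measure for this tumor. Below the others were Krt7 at -0.99 (others 0.24 to 0.57), Krt8 at -2.98 (others -0.64 to 0.03) and on its second probe -1.61 (others -0.41 to 0.28), and Krt18 at -2.14 (others -0.28 to 0.32). Krt20 at -4.10 (others -1.57 to -0.95), Krt23 at 0.64 (others 5.13 to 5.94) and Perp at -5.44 (others -3.37 to -2.53) were also below. Cdh1 at 3.42 (others 0.72 to 1.59) was above. Cldn7 was not examined, as it was well above background in tumor 313 alone. All are log2 ratios to the reference labelled as blood.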

How the results depend on the processing

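Over the single genes, 143 estimates between the days and 125 against the reference labelled as blood kept their direction and their side of the threshold. The 3 genes higher in the tumors were called in every alternative except the demand for 6 arrays well above background, which left out Krt19. The number lower was 4 with median centring, against 2. Of the epithelial lists, 28 were lower with median centring and 19 with the processed signals, against 11, and leaving out 1 tumor gave 6 to 14, the lowest without tumor 313 and the highest without tumor 318. Estimates between day 15 and day 10 that turned were 0.0058 for Krt8 and 0.066 for Krt18 in Cy3 alone. Leaving out 1 tumor gave -0.53 to 1.14 for Krt19 (-0.20 without tumor 312), -1.50 to 0.071 for Krt20, -2.16 to 0.49 for Krt23 and -0.13 to 1.22 for Cdh1, and the turned end of each came without tumor 313. Against the reference, Krt7 turned to -0.71 with median centring (limma adjusted p = 0.00814) and -0.082 with the processed signals and with the value table, and Epcam to -0.19, -0.24 and -0.24 in that order. Leaving out 1 tumor gave -0.53 to 0.0758 for Krt18, the positive value without tumor 313. The cause of these changes was not tested. No paired analysis was possible because the tumor numbers are not shared between the days. Array position as a block changed no call.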

Other observations

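Of 8 bile duct genes tested, Krt7, Krt19 and Epcam among them, 1 was higher (Krt19) and 2 were lower than the reference labelled as blood. Tff2, a trefoil peptide, was lower at -1.92 (SE 0.08). Sox9, a progenitor and duct factor, read -1.94 in tumor 313, against -0.33 to 0.72 in the other tumors. Of 5 skin epithelium genes 1 was higher and 1 was lower. Of 5 mesothelium genes 1 was tested, with 0 called in limma, and 0 of 5 probes were well above background on all 6 arrays in either dye.

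Genes of other cells were mostly higher in the tumors. Against the reference labelled as blood, 5 of 5 macrophage genes (median 5.87), 5 of 5 endothelial genes (median 3.20), 4 of 5 fibroblast genes (median 7.05) and 6 of 7 muscle genes (median 1.78) were higher. The macrophage median was 6.12 in tumor 313 and 5.64 to 6.19 in the other tumors. For endothelial genes it was 4.13 against 2.52 to 3.68, and for fibroblast genes 7.56 against 6.59 to 7.37. Tumor 313 was highest in 3 of 5 macrophage, 4 of 5 endothelial and 3 of 5 fibroblast genes, against 33.7% of all genes. It was lowest in 1 fibroblast gene. The part of these cells in the low keratin values of tumor 313 was not tested.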
